A study of Arabidopsis thaliana with 114 samples.

Results

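Roots of Arabidopsis thaliana seedlings were compared 120 min after they received either nitrogen (N) or KCl. The comparison takes 6 of the 57 root RNA sequencing samples of the series, which holds as many shoot samples again. They are the root samples labelled 120 whose title has the letter N (3 samples) and those whose title has the letter C (3 samples). Since the labels state times without a unit, minutes are assumed. Seedlings of all groups had grown in phytatrays on 1% sucrose with 1 mM KNO3. The N group then received 20 mM KNO3 with 20 mM NH4NO3, which is 60 mM nitrogen, and the control group 20 mM KCl. The added potassium was thus equal, NH4NO3 was added in N alone and chloride in the control alone. Responses to nitrate, ammonium, chloride and total salt cannot be told apart, and N here means the whole supply. The labels name no genotype, age or number of seedlings per sample, and they do not say whether the 3 replicates were separate cultures. The p-values thus measure only a spread between samples, which the root fit shared over all 57 root samples. Root samples at time 0 (3), root samples at 90 min (3 N and 3 KCl) and shoot samples at 120 min (3 N and 3 KCl) serve for orientation.

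In roots, nitrate is taken up by transporters of the NRT1 and NRT2 families, reduced to nitrite by nitrate reductase and then to ammonium by nitrite reductase. The second step takes electrons from ferredoxin, which in roots is reduced by NADPH from the oxidative pentose phosphate pathway. Ammonium is then built into glutamine and glutamate by glutamine synthetase and glutamate synthase. Nitrate also acts as a signal. NLP transcription factors start a fast response, which includes genes of repressors such as the NIGT1 family (HRS1 and the HHO proteins) and LBD37 to LBD39 that limit uptake and starvation genes later on. In rich nitrogen supply roots also raise cytokinin synthesis, and cell growth calls for new ribosomes.

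Sequences are shown for 5 promoters of genes on which the results turn, from 250 bases before to 50 bases after the annotated start, read from the RefSeq genome of build TAIR10.1 along the strand of the gene. The promoters of FIB1, SWA1 and TOZ stand for ribosome biogenesis genes, which were higher in N. In these, capitals mark the site II element TGGGCC and the telo-box AAACCCTA, on either strand (the letters GGCCCA are the site II element of the other strand). NRT2.4 and NRT2.5 are high-affinity nitrate transporter genes that were lower in N. Capitals mark GAATC, the core that NIGT1 repressors are known to bind, on either strand (GATTC on the other), and TGACG, the core of TGA factor sites, which neither window held. The windows lie at chr5:21293897-21294196 on the plus strand (FIB1), chr2:19638629-19638928 on the minus strand (SWA1), chr5:5509312-5509611 on the minus strand (TOZ), chr5:24444115-24444414 on the plus strand (NRT2.4) and chr1:4416065-4416364 on the plus strand (NRT2.5).
FIB1: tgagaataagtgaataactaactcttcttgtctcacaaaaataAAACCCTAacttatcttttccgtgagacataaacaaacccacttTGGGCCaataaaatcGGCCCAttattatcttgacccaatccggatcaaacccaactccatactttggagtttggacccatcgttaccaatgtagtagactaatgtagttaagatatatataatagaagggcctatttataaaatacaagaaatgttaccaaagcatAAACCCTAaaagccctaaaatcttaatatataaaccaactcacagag
SWA1: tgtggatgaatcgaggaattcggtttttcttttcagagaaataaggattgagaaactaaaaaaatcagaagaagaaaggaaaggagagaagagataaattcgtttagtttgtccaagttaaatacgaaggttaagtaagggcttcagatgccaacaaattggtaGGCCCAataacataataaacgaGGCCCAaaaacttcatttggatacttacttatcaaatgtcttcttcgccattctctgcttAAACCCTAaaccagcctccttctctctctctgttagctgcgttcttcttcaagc
TOZ: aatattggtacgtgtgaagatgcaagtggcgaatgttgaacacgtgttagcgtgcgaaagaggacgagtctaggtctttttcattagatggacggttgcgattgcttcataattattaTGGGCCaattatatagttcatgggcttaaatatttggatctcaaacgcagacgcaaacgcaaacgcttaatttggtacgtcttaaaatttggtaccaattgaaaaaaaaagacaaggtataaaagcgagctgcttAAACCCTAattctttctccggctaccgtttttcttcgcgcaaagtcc
NRT2.4: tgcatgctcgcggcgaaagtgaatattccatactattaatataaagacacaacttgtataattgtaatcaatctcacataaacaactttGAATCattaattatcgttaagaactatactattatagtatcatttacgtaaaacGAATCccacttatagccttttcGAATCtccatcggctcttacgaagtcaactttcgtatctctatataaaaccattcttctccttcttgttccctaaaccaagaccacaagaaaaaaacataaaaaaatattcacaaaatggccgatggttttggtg
NRT2.5: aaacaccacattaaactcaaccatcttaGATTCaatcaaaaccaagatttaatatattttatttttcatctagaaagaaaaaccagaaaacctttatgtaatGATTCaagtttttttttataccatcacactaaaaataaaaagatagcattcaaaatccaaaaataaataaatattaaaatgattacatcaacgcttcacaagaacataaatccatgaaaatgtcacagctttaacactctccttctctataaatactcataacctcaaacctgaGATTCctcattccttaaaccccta

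The 3 N samples held 43038066 to 101167877 counts in genes and the 3 KCl samples 36062582 to 42572111. Of 15 root tissue markers, 15 had at least 10 counts in each of the 6 samples. Of 21 markers of green shoot tissue, 18 did and 0 were at 0 throughout. Their summed level was 157.3 to 220.9 CPM in N, 177.6 to 369.1 in KCl and 124.8 to 150.6 at time 0, where CPM is the count per 1e6 counts of the scaled library. KCl replicate 2 held the highest sum, 369.1 CPM, with LHCB2.2, a light-harvesting protein gene, at 6.93 CPM there and at 0.39 to 1.96 in the other 5 samples. None of these 21 passed the test (0 of 21), and their median log2 was −0.55, or −0.10 without KCl replicate 2. The part of this in the results that hang on KCl replicate 2 was not tested. KCl replicate 3 lay nearer to the N samples than the other KCl samples did. Its root mean square log2 distance to the N samples was 0.48 to 0.547, against 0.625 to 0.676 for KCl replicates 1 and 2, and it was 0.351 and 0.378 from these.

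N changed the level of a large share of root genes in both directions. Of 22185 genes tested, 8230 (37.1%) differed between N and KCl, with 4134 (18.6%) higher and 4096 (18.5%) lower in N, by the quasi-likelihood test of edgeR with a Benjamini-Hochberg adjusted p of at most 0.05. A gene counted in this way is called below, and a log2 value is N over KCl unless stated otherwise. The median log2 of all genes was 0.03, and the median size of a called change was 0.72. Changes of at least log2 1 were seen for 1264 higher and 1189 lower genes. Leaving out KCl replicate 2 left 5995 calls, the fewest of any omission, and leaving out KCl replicate 3 gave 8456. In whole roots, a change in the number of cells of a type and a change in RNA per cell cannot be told apart.

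The largest rises were these. AT3G07350, a gene of the DUF506 family, stood at 34.9, 58.0 and 42.8 CPM in N and at 0.42 to 0.71 in KCl, log2 6.25 ± 0.663 (SE, edgeR adjusted p = 5.54e-10). AT1G49500 reached log2 6.17, GAT1_2.1, which encodes a class I glutamine amidotransferase, 5.10, and AT5G19120, an aspartyl protease family gene, 4.90. Also among the 12 largest were CLE3, BT1, LBD39, BT2 and ASN1, described with their families below, AT4G29905 (4.66), the basic leucine-zipper gene AT1G68880 (4.53) and the glutaredoxin-like gene ROXY2 (4.40). For all 12, every N sample lay above every KCl sample, which the choice of these genes required.

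The largest falls came next. CYP716A2, a cytochrome P450 gene, stood at 2.32, 0.62 and 0.77 CPM in N against 48.9, 34.2 and 20.6 in KCl, log2 −4.77 ± 0.702 (edgeR adjusted p = 7.98e-07). The next were AT1G64590 (log2 −3.80, an NAD(P)-binding protein), the peroxidase gene AT1G14550 (−3.74), the lectin kinase gene AT2G29250 (−3.65), the P450 gene AT5G36130 (−3.60), and the copper amine oxidase gene AT4G12290 (−3.59). The disease resistance gene AT1G66090 (−3.24), AT5G64870 (−3.14), NLP9, AT4G37290 (−3.01), the metal-binding protein gene AT1G29100 (−2.98) and the lipase gene GLIP4 (−2.93) completed the 12. The smallest p of all genes belonged to AT4G33040, which encodes a thioredoxin superfamily protein. It fell from 58.1 to 72.3 CPM in KCl to 12.4 to 13.7 in N, log2 −2.39 ± 0.136 (edgeR adjusted p = 3.16e-17). AT1G30820 (edgeR adjusted p = 5.03e-16) and AT4G25835 (1.32e-15), also among the 10 smallest p, were higher in N. Their log2 was 2.69 to 2.94 and 3.72 to 3.77 over the alternative fits described below.

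Most genes of nitrate reduction and its electron supply were higher in N. Of 21 tested, 15 were higher, 1 was lower and 5 did not pass, with a median log2 of 1.03 (76.2% called, against 37.1% of all genes). NIR1 (AT2G15620), the nitrite reductase, stood at 1216, 1582 and 1235 CPM in N and at 271, 243 and 183 in KCl. The groups did not overlap, and the log2 was 2.54 ± 0.261 (edgeR adjusted p = 2.94e-10). UPM1 (AT5G40850), which makes the sirohaem precursor that nitrite reductase needs, stood at 558, 688 and 593 against 87.2, 74.5 and 80.3, log2 2.93 ± 0.2 (edgeR adjusted p = 4.00e-15). The root ferredoxin reductases RFNR1 (log2 3.01) and RFNR2 (2.82) and the root ferredoxin FD3 (1.97) were higher as well.

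The nitrate reductase genes differed from each other. NIA1 (AT1G77760) was at 1102, 1391 and 1040 CPM in N against 697, 572 and 463 in KCl, log2 1.03 ± 0.239 (edgeR adjusted p = 7.29e-04). NIA2 (AT1G37130), the other nitrate reductase, was at 954, 1427 and 987 against 1317, 1086 and 913, with overlapping groups and a log2 of 0.02 ± 0.263 (edgeR adjusted p = 0.959). The molybdenum cofactor genes CNX1 (0.61), CNX2 (0.64) and AT2G43760 (1.06, known as CNX6) were higher, while CNX3 (0.28) and CNX7 (0.26) did not pass.

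In the oxidative pentose phosphate pathway, the dehydrogenase genes moved in both directions. G6PD3, a plastid glucose-6-phosphate dehydrogenase, was at 265, 349 and 285 CPM in N against 46.2, 42.6 and 36.6 in KCl, log2 2.84, and G6PD2 reached 1.42. The 6-phosphogluconate dehydrogenase genes AT1G64190 (PGD1, log2 1.77) and AT5G41670 (PGD3, 2.57) were higher, but AT3G02360 (PGD2) was lower, at 241, 285 and 248 CPM against 556, 550 and 370, log2 −0.93 ± 0.152 (edgeR adjusted p = 5.39e-06). These PGD names are from general knowledge and not from the reference table. PGD2 was thus the only called member of the list with less RNA in N than in KCl.

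**Figure D1:**
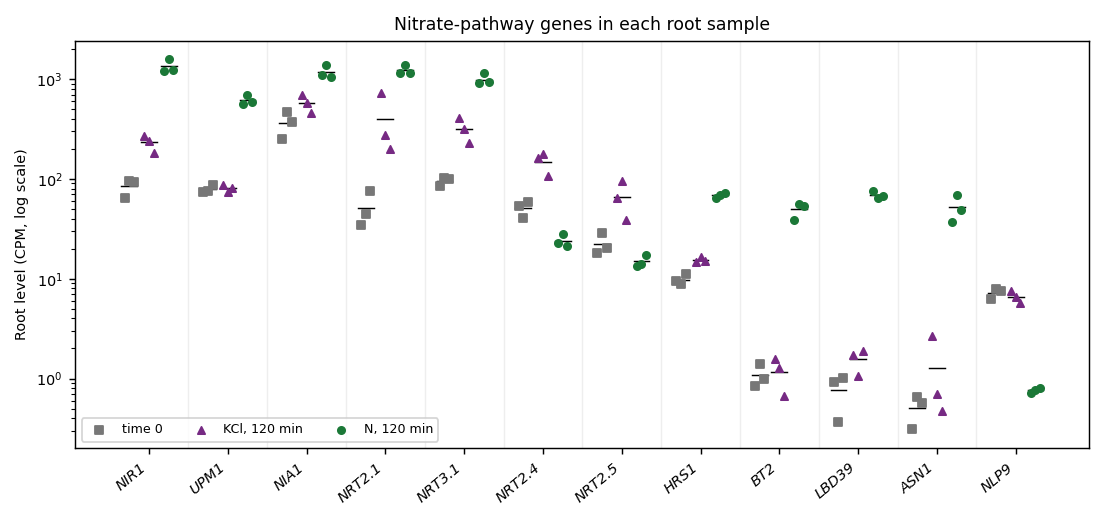
Root level (CPM, log axis) of 12 genes in the 3 samples of time 0 (squares), KCl at 120 min (triangles) and N at 120 min (circles), with the group mean as a short line. NIR1, UPM1, HRS1, BT2, LBD39 and ASN1 lie higher in all 3 N samples than in KCl, whereas NRT2.4, NRT2.5 and NLP9 lie lower.

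Nitrate transporter genes split into a few that were higher and more that were lower in N. Of 21 tested, 4 were higher, 9 lower and 8 did not pass, median log2 −0.83 (61.9% called, beside 37.1% of all genes). NRT2.1 (AT1G08090), a main high-affinity uptake transporter of roots, stood at 1164, 1397 and 1152 CPM in N against 733, 273 and 201 in KCl, log2 1.62 ± 0.381 (edgeR adjusted p = 8.28e-04). Its partner protein gene NRT3.1 (AT5G50200) was at 908, 1140 and 925 against 409, 317 and 230, log2 1.64 ± 0.21 (edgeR adjusted p = 5.06e-08). KCl replicate 1 was the highest control for both. NRT2.2, a near copy of NRT2.1 whose reads may be shared with it, was at 12.8 to 14 CPM in N and 3.68 to 17.7 in KCl, log2 0.32 (edgeR adjusted p = 0.641). NRT1.1 (AT1G12110), which transports nitrate and acts as its sensor, was at 134, 149 and 144 CPM against 143, 86.2 and 69.0. The groups overlapped through KCl replicate 1, and the log2 of 0.52 ± 0.217 did not pass (edgeR adjusted p = 0.0563).

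The starvation-type transporters were lower. NRT2.4 (AT5G60770) was at 22.8, 28.1 and 21.3 CPM in N against 164, 176 and 108 in KCl, log2 −2.63 ± 0.28 (edgeR adjusted p = 5.64e-10). NRT2.5 (AT1G12940) was at 13.3, 14.2 and 17.3 against 63.7, 94.5 and 38.8, log2 −2.14 ± 0.415 (edgeR adjusted p = 7.98e-05). All 3 N samples lay below all 3 KCl samples for both genes. NRT1.2 (log2 −0.83), NRT1.7 (−1.48), NRT1.9 (−1.29) and the nitrate efflux gene NAXT1 (−0.90), all of the NRT1 family, were lower too. Of the anion channel genes, SLAH3 was lower (−1.11) and SLAH2 higher (0.91). The vacuolar exchanger genes CLCA (0.53, edgeR adjusted p = 0.0671) and CLCB (0.25, 0.509) did not pass.

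Ammonium uptake and assimilation was split as well, with 7 of 21 genes higher, 8 lower and 6 not past the test. The median log2 was −0.15 (71.4% called, beside 37.1% of all genes). GLT1 (AT5G53460), the NADH-dependent glutamate synthase of roots, stood at 3056, 3493 and 3093 CPM in N against 1492, 1191 and 871 in KCl, log2 1.44 ± 0.217 (edgeR adjusted p = 1.35e-06). The cytosolic glutamine synthetase genes went the other way for 3 of the 5 members. GLN1;4 was at 65.6, 68.3 and 52.3 CPM against 234, 311 and 317 (log2 −2.21), and GLN1;3 (−1.32) and GLN1;1 (−1.29) were also lower. GLN1;2 stood at 2494, 3125 and 2547 against 2534, 1426 and 1103, log2 0.69 (edgeR adjusted p = 0.0185), with overlapping groups, and its call was lost in 5 of the alternatives. GLN1;5 did not pass.

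The asparagine and glutamate dehydrogenase genes diverged within each family. ASN1 (AT3G47340), a glutamine-dependent asparagine synthetase, was at 37.4, 69.5 and 49.2 CPM in N against 2.66, 0.70 and 0.47 in KCl, log2 5.37 ± 0.58 (edgeR adjusted p = 8.92e-10). ASN2 was higher by log2 1.31, and ASN3 did not pass (−0.15). For glutamate dehydrogenase, which joins or releases ammonium, GDH2 (2.14) and GDH1 (1.15) were higher and GDH3 (−2.48) lower. GDH3 stood at 28.7 to 38.2 CPM in N and 135 to 219 in KCl. The ammonium transporter gene AMT2;1 was lower (−0.74), while AMT1;1 (−0.27) and AMT1;3 (−0.11) did not pass. AMT1;2 was called lower (−0.87, edgeR adjusted p = 0.0131), a call lost without N replicate 2 and without KCl replicate 1. Genes that supply carbon skeletons were mixed, with 4 of 16 higher and 5 lower (56.2% called, beside 37.1% of all genes). Among them were PPCK2, a kinase of phosphoenolpyruvate carboxylase (1.76), the malate exchanger DIT1 (1.02) and the carboxylase PPC1 (−0.85). The higher count was 2 without N replicate 2.

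Regulators of the nitrate response were mostly higher in N. Of 46 tested, 26 were higher, 10 lower and 10 did not pass, median log2 0.77 (78.3% called). LBD39 (AT4G37540) stood at 75.6, 64.7 and 67.4 CPM in N against 1.73, 1.06 and 1.89 in KCl, log2 5.46 ± 0.469 (edgeR adjusted p = 2.19e-12). Its relatives LBD38 (4.06) and LBD37 (2.48), also repressors of nitrate genes, were higher in the same samples. HRS1 (AT1G13300), a NIGT1 repressor, was at 64.2, 69.1 and 72.9 CPM against 14.7, 16.4 and 15.2, log2 2.16 ± 0.237 (edgeR adjusted p = 1.31e-09). Of its relatives, named here from general knowledge, AT1G68670 (HHO2, 2.47), AT1G25550 (HHO3, 2.35), AT4G37180 (HHO5, 1.64) and AT1G49560 (HHO6, 0.95) were higher. AT3G25790 (HHO1, 0.63) and AT2G03500 (HHO4, 0.15) did not pass.

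The BT genes encode BTB-TAZ scaffold proteins, which in this species are known to repress NRT2 genes. BT2 (AT3G48360) was at 38.6, 56.6 and 53.0 CPM in N against 1.56, 1.27 and 0.67 in KCl, log2 5.42 ± 0.389 (edgeR adjusted p = 1.26e-14). BT1 (5.66), BT5 (2.71) and BT3 (1.7) were higher as well, and BT4 did not pass (0.28). The kinase genes CIPK3 (2.4) and CIPK23 (1.42, edgeR adjusted p = 4.46e-16), which phosphorylates NRT1.1, were higher with little spread: CIPK23 stood at 233 to 252 CPM in N and 84.2 to 96.0 in KCl. MAPKKK13 (2.65), MAPKKK14 (1.86), TGA1 (1.43), NAC4 (1.42) and CDF1 (1.35) were also higher.

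Most NLP genes themselves were lower. Of the 9, NLP2 (log2 −1.36), NLP4 (−1.02), NLP5 (−1.95), NLP7 (−0.75), NLP8 (−0.87) and NLP9 (−3.10) were lower and NLP1, NLP3 and NLP6 did not pass. NLP9 (AT3G59580) stood at 0.72, 0.76 and 0.80 CPM in N against 7.45, 6.54 and 5.66 in KCl, with an edgeR adjusted p of 3.53e-09. NLP7, the best known of these nitrate sensors, was at 79.0, 86.7 and 83.2 against 162, 141 and 116. The call of NLP8 was lost without KCl replicate 1.

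**Figure D2:**
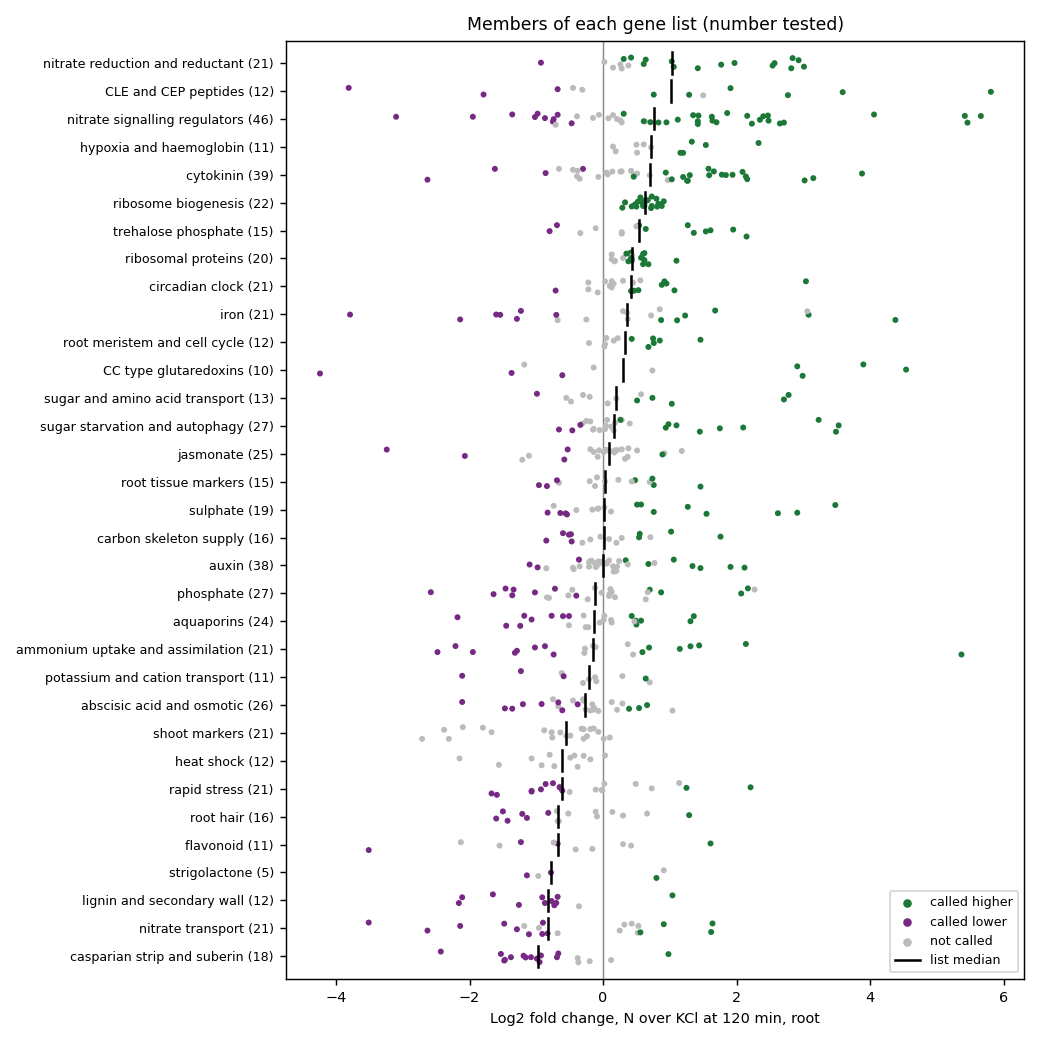
Log2 fold change of N over KCl at 120 min in the root for the tested members of 33 gene lists, sorted by the list median (black line), with called higher members in green, called lower in purple and others in grey. Nitrate reduction has the highest median (1.03) and Casparian strip and suberin the lowest (−0.97).

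In the cytokinin list, genes of synthesis were split and most response genes were higher. Of 39 tested, 19 were higher, 4 lower and 16 did not pass, median log2 0.70 (59.0% called). IPT3 (AT3G63110), which makes the hormone's precursor, was at 31.2, 25.9 and 27.9 CPM in N against 2.22, 1.58 and 1.96 in KCl, log2 3.88 ± 0.387 (edgeR adjusted p = 1.25e-10). CYP735A2, which makes trans-zeatin, was at 89.1, 88.3 and 82.8 against 12.6, 5.35 and 14.2 (log2 3.02), while IPT1 (0.42), IPT5 (−0.66), IPT7 (−0.45) and CYP735A1 (0.51) did not pass. ABCG14, which exports cytokinin from root to shoot, reached 1.66. The type-A response regulators ARR4 to ARR9 were all higher, by log2 1.27 to 2.14, and CRF4, a cytokinin response factor, by 1.78. Among the genes of breakdown, CKX4 (3.15), CKX3 (edgeR adjusted p = 0.00536) and CKX5 (0.0284) were higher, the call of CKX5 being lost in 3 alternatives. CKX1, CKX2, CKX6 and CKX7 did not pass. The activating enzymes LOG1 (−2.63), LOG5 (−1.62) and LOG8 (−0.30) and the receptor AHK3 (−0.86) were lower, and LOG2, LOG3, LOG4 and LOG7 did not pass.

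Several small peptide genes of the CLE family were higher. Of 12 CLE and CEP pathway genes tested, 6 were higher, 3 lower and 3 did not pass (75.0% called, beside 37.1% of all genes). The median log2 was 1.02. The higher count was 4 without N replicate 1, N replicate 3 or KCl replicate 3. The calls of CLE2 (edgeR adjusted p = 0.04) and CLE7 (0.0432) were each lost in 5 alternatives. CLE3 (AT1G06225) was at 7.68, 9.46 and 7.45 CPM in N against 0.36, 0.03 and 0.06 in KCl, log2 5.81 ± 0.644 (edgeR adjusted p = 1.66e-09). CLE4 (3.59), CLE6 (1.91) and CLE1 (2.77) were higher too, and their receptor CLV1 was lower (−0.68). CLE4 to CLE7 are similar genes whose reads may be shared. The peptide precursor genes AT2G23440 (log2 −3.81) and AT5G66815 (−1.79) were lower. AT2G23440 was at 0.36 to 0.69 CPM in KCl and at 0 in 2 of the N samples, so its fitted log2 depends on the prior count.

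Few auxin genes were called. Of 38 tested, 7 were higher and 3 lower (26.3% called, beside 37.1% of all genes), median log2 0.00. TAR2, an auxin synthesis gene known from low-nitrogen root growth, was at 31.5, 36.4 and 27.5 CPM in N against 15.7, 15.8 and 14.1 in KCl, log2 1.06. IAA2 (1.46) and IAA30 (2.12) were higher, and the response factor ARF7 (−0.98) and YUC9 (−1.10) lower. In strigolactone synthesis, CCD8 (−1.14) and MAX1 (−0.78) were lower, and MAX2, a signalling gene, higher (0.80).

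All 22 ribosome biogenesis genes tested were higher in N, median log2 0.63, and 0 were lower (beside 37.1% of all genes called). SWA1 (AT2G47990), needed for rRNA processing, stood at 69.2, 78.6 and 64.5 CPM in N against 38.6, 34.3 and 46.5 in KCl, log2 0.83 ± 0.134 (edgeR adjusted p = 4.85e-06). CBF5 (AT3G57150), the pseudouridine synthase of small nucleolar RNPs, was at 489, 534 and 509 against 245, 244 and 326, log2 0.91 ± 0.217 (edgeR adjusted p = 9.64e-04). TOZ (0.63), PES (0.67), SWA2 (0.80) and the fibrillarin genes FIB1 (0.56) and FIB2 (0.88), which are similar to each other, followed. KCl replicate 3 was the highest control for SWA1 and CBF5. Without KCl replicate 2, 18 of the 22 were called, and without KCl replicate 3, 21.

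Ribosomal protein genes had fewer calls. Of 20 tested, 14 were higher and 0 lower, median log2 0.43 (70.0% called, beside 37.1% of all genes). Among them were RPS5B (0.68), RPL24B (0.60) and RPS18A (0.57). The count was 6 without KCl replicate 2, 7 without KCl replicate 1 and 16 without KCl replicate 3.

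Several genes that sugar starvation is known to induce were higher in N. Of 27 sugar starvation and autophagy genes tested, 10 were higher, 3 lower and 14 did not pass, median log2 0.16 (48.1% called, beside 37.1% of all genes). DIN10 (AT5G20250), a raffinose synthase family gene, was at 392, 550 and 415 CPM in N against 57, 31.7 and 29.1 in KCl, log2 3.53 ± 0.319 (edgeR adjusted p = 9.22e-12). AT3G15450, known as SEN5, reached log2 3.49 and DIN1 (AT4G35770) 3.23. The leucine and other branched-chain breakdown genes DIN3 (1.75), IVD (1.1) and MCCA (0.98), proline dehydrogenase PRODH1 (0.94) and the transcription factor genes BZIP63 (2.1) and BZIP53 (1.45) were higher. The kinase gene KIN10 (−0.05) and 7 of the 9 ATG8 autophagy genes did not pass, and ATG8F (−0.34), ATG8H (−0.66) and the hydroxyglutarate dehydrogenase gene D2HGDH (−0.46) were called lower, each lost in at least 1 alternative. The lower count was 0 without KCl replicate 1, and 1 without N replicate 1 or without N replicate 3.

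Of 15 trehalose phosphate genes, which relate to sugar signalling, 8 were higher and 2 lower. The median log2 was 0.54 (66.7% called, beside 37.1% of all genes). TPS8 was at 75.7, 129 and 104 CPM in N against 26.5, 22.04 and 20.8 in KCl (log2 2.15), and TPS9 (1.95), TPS11 (1.61), TPPB (1.54) and TPS10 (1.36) were higher, whereas TPS5 was lower (−0.80). The lower count was 1 without any single N replicate and without KCl replicate 2. Among 13 sugar and amino acid transporter genes, 6 were called (46.2%, beside 37.1% of all genes). GDU1, which promotes glutamine export, was at 200, 280 and 226 CPM against 39.7, 28.0 and 40.3 (2.71). UMAMIT14 (2.78), SUC1 (1.03) and UMAMIT18 (0.74) were higher, and the amino acid importer gene LHT1 lower (−0.99).

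Genes of other nutrients were mixed, with single strong responders. Of 19 sulphate genes, 8 were higher and 4 lower, median log2 0.02 (63.2% called, beside 37.1% of all genes). SULTR1;2 (AT1G78000), the main sulphate uptake transporter of roots, stood at 233, 208 and 233 CPM in N against 36.0, 14.9 and 9.51 in KCl, log2 3.48 ± 0.393 (edgeR adjusted p = 2.43e-09). SDI1 (2.62), LSU2 (1.27) and BGLU28 (2.91), markers of low sulphur, and SULTR4;2 (1.55) were higher, while APS4 (−0.64), OASA1 (−0.54) and GSH1 (−0.56) of assimilation were lower.

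Of 27 phosphate genes, 4 were higher and 8 lower, median log2 −0.12 (44.4% called, beside 37.1% of all genes). Without KCl replicate 1, 2 were higher. The phosphate sensor gene SPX1 was at 64.2, 87.7 and 81.3 CPM in N against 17.3, 15.7 and 18.9 in KCl (log2 2.17), and SPX4 was higher too (0.70). The lipid remodelling genes SQD2 (−1.46), MGD2 (−1.64) and MGD3 (−1.34), the ribonuclease gene RNS1 (−2.58) and PHO2 (−0.72) were lower. The uptake transporter gene PHT1;1 did not pass (−0.23).

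Of 21 iron genes tested, 6 were higher and 7 lower, median log2 0.36 (61.9% called, beside 37.1% of all genes). Without KCl replicate 1, 3 were lower. NAS4, a nicotianamine synthase, was at 16.1, 13.1 and 13.9 CPM in N against 1.15, 0.57 and 0.37 in KCl (log2 4.38), and NAS1 reached 1.68. BHLH38 (3.08), OPT3 (1.11) and PYE (0.87) were higher. Genes of iron-chelating coumarins, F6'H1 (−1.54) and AT3G12900 (S8H, −1.6), and the zinc transporter gene MTP3 (−1.29) were lower. The ferric reductase gene FRO2 did not pass (−0.68), and the iron transporter gene IRT1 had too few counts to be tested. Of 11 potassium and cation transport genes, 4 were called (36.4%, beside 37.1% of all genes). The sodium transporter HKT1 (−2.11) and CHX17 (−1.23) were lower and HAK5 did not pass (−0.62). Among 24 aquaporin genes, 6 were higher and 8 lower (58.3% called, beside 37.1% of all genes). The higher were led by PIP2;3 (1.36) and the lower by NIP7;1 (−2.18), NIP1;1 (−1.45) and TIP4;1 (−1.24). The higher count was 2 without N replicate 2, and 3 without KCl replicate 2 or without KCl replicate 3.

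Genes that build barriers and walls of the root had less RNA in N than in KCl. Of 18 Casparian strip and suberin genes tested, 13 were lower, 1 higher and 4 did not pass. The median log2 was −0.97 (77.8% called, beside 37.1% of all genes). FAR4 (AT3G44540), which makes fatty alcohols of suberin, stood at 31.0, 25.5 and 27.6 CPM in N against 145, 155 and 155 in KCl, log2 −2.43 ± 0.236 (edgeR adjusted p = 5.47e-11). ASFT, which adds ferulate to suberin, was at 43.5, 45.4 and 43.7 against 132, 166 and 85.8 (log2 −1.53), and CYP86A1 at 125, 163 and 135 against 372, 342 and 179 (−1.08). For ASFT and CYP86A1, KCl replicate 3 was the lowest control. GPAT5 (−1.19), FAR1 (−1.47), the receptor SGN3 (−1.16) and the exporter ABCG6 (−1.38) were lower as well. Without KCl replicate 2, 10 of the members were called lower. The 1 higher call was lost without N replicate 3, KCl replicate 1 or KCl replicate 2.

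Of 12 lignin and secondary wall genes, 10 were lower and 1 higher, median log2 −0.82 (91.7% called, beside 37.1% of all genes). PAL1 (AT2G37040), the entry enzyme of phenylpropanoid synthesis, was at 351, 369 and 335 CPM in N against 1436, 2038 and 1070 in KCl, log2 −2.11 ± 0.234 (edgeR adjusted p = 1.69e-09). 4CL1 (−2.16), PAL2 (−1.65), C4H (−0.91), CCOAOMT1 (−0.73) and CAD5 (−0.68) of the same pathway were lower. The cellulose synthase genes of the secondary wall, CESA4 (−0.70), CESA7 (−0.87) and CESA8 (−1.26), were called lower, each call being lost in at least 1 alternative. Without KCl replicate 1, 6 members were called lower. The 1 higher call was lost without N replicate 3 or KCl replicate 1. Of 11 flavonoid genes, 1 was higher and 3, among them F3'H (−1.23), were lower (36.4% called, beside 37.1% of all genes). The lower count was 1 without KCl replicate 2 and 5 without KCl replicate 3. The 1 higher call was lost without N replicate 3 or KCl replicate 2.

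Of 16 root hair genes tested, 6 were lower and 1 higher, median log2 −0.67 (43.8% called, beside 37.1% of all genes). LRX1, a wall protein of root hairs, was at 21.5, 20.5 and 21.2 CPM in N against 82.0, 61.0 and 27.8 in KCl (log2 −1.43), and RHD2 (−1.14) and IRE (−1.60) were lower. CPC, a regulator that promotes hair cell fate, was higher (1.29). The lower count was 3 without KCl replicate 1 and 9 without KCl replicate 3, and the higher count 2 without N replicate 2 or without KCl replicate 3. Of 12 meristem and cell cycle genes, 6 were higher and 0 lower, median log2 0.33 (6 of 12 called, beside 37.1% of all genes), with WOX5 (1.46) of the stem cell niche at 3.74, 3.84 and 3.97 CPM against 1.48, 1.12 and 1.59 and PLT3 at 0.85. Without KCl replicate 1, 2 were called. Of the 15 root tissue markers, which are partly the same genes, 4 were higher and 3 lower (46.7% called, beside 37.1% of all genes). The 3 lower (CASP1, XCP1 and BRN1) were not called without KCl replicate 2. The higher count was 2 without KCl replicate 1.

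Of 21 rapid stress genes, 10 were lower and 2 higher, median log2 −0.61 (57.1% called). MYB51, a regulator of indole glucosinolates, was at 25.9, 28.7 and 25.2 CPM in N against 74.6, 116 and 49.5 in KCl (log2 −1.59), and ZAT11 (−1.67), WRKY33 (−1.07) and ERF5 (−0.93) were lower. WRKY18 went the other way, at 145, 182 and 146 against 21.3, 56.0 and 24.7 (2.21). KCl replicate 2 held the highest value of MYB51, WRKY33 and ERF5, and without it 6 members were called lower. The higher count was 1 without N replicate 2. Among 25 jasmonate genes, 1 was higher and 4 lower (20.0% called, beside 37.1% of all genes), with LOX4 (−2.07) at 3.497 to 4.45 CPM against 10.3 to 29.6. The lower count was 1 without KCl replicate 2, and the higher count 0 without N replicate 2, N replicate 3 or KCl replicate 3 and 2 without N replicate 1. Of 26 abscisic acid and osmotic genes, 3 were higher and 8 lower (42.3% called, beside 37.1% of all genes). Among the lower were the phosphatase genes ABI1 (−0.67) and HAB2 (−0.61). The lower count was 3 without N replicate 1, N replicate 3 or KCl replicate 1, and 4 without N replicate 2 or KCl replicate 3. The higher count was 1 without N replicate 2 or KCl replicate 2. Of 12 heat shock genes, 0 were called by edgeR in the fit of all root samples (median −0.61). With only the 6 samples in the fit 1 was lower, or 2 with a replicate block, and DESeq2 called 1 lower. Without N replicate 2, 1 was lower, and without KCl replicate 3, 2 were.

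Both haemoglobin genes were higher. HB1 (AT2G16060), a haemoglobin that responds to nitrate and to low oxygen, was at 473, 924 and 587 CPM in N against 153, 113 and 128 in KCl, log2 2.33 ± 0.299 (edgeR adjusted p = 5.13e-08), and HB2 reached 1.16. Of 11 members, 5 were higher and 0 lower, median log2 0.72 (45.5% called, beside 37.1% of all genes). Without N replicate 2 or without KCl replicate 2, 2 were called. Among 21 circadian clock genes, 8 were higher and 1 lower (42.9% called, beside 37.1% of all genes), with RVE2 (3.04) at 48.2, 60.0 and 59.5 CPM against 6.76, 6.78 and 6.78. The CC-type glutaredoxin genes had 4 members higher and 3 lower of 10 (70.0% called, beside 37.1% of all genes). Their lower count was 0 without KCl replicate 2 or N replicate 3 and 1 without N replicate 1 or N replicate 2. AT3G62930 (GRXS6) was higher by log2 2.91, and the sequences of these genes are alike, so reads may be shared.

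Each supply was also set against the samples of time 0. These comparisons share the N or the KCl samples with the main comparison, so their values are only set side by side. KCl at 120 min differed from time 0 in 48.1% of genes (24.0% higher, 24.0% lower), and N at 120 min in 36.1% (17.9% higher, 18.3% lower). In library measures, too, N lay nearer to time 0 than KCl did. Reads in no gene were 2.13 to 2.76% of gene counts at time 0, 1.46 to 1.75% in N and 1.03 to 1.24% in KCl. Ambiguous reads were 2.5 to 2.71%, 2.24 to 2.53% and 1.79 to 1.96%. The time 0 samples held 80724946 to 143269564 counts in genes. The part of these measures in the comparisons with time 0 was not tested. In the Casparian strip and suberin list, 11 of 18 were higher and 1 lower in KCl than at time 0 (median log2 0.76), and 0 were higher and 3 lower in N (median −0.05). In the lignin and secondary wall list, 9 of 12 were higher and 1 lower in KCl (median 1.11). In N, 0 were higher and 2 lower (median 0.19). PAL1 stood at 610 CPM at time 0, and its log2 over time 0 was 1.31 in KCl and −0.79 in N. For root hair genes, 10 of 16 were higher and 1 lower in KCl than at time 0. In N, 9 were higher and 0 lower, or 5 higher without N replicate 1. LRX1 had a log2 over time 0 of 3.07 in KCl and 1.64 in N.

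The ribosome biogenesis list had 2 members higher and 12 lower in KCl than at time 0 (median log2 −0.32), and 10 higher and 0 lower in N (median 0.23). The 12 became 6 without KCl replicate 1. The nitrate reduction list had 9 of 21 members higher and 2 lower in KCl than at time 0, and 13 higher and 1 lower in N. Of all genes, 24.0% were higher and 24.0% lower in KCl, and 17.9% and 18.3% in N. NIR1 had a log2 over time 0 of 1.46 in KCl and 3.99 in N. NRT2.1 had 2.97 and 4.59. NRT2.4 had 1.55 in KCl and −1.08 in N. UPM1 had 0.03 in KCl and 2.96 in N. RVE2 was at 32.3 CPM at time 0, with a log2 of −2.25 in KCl and 0.79 in N.

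**Figure D3:**
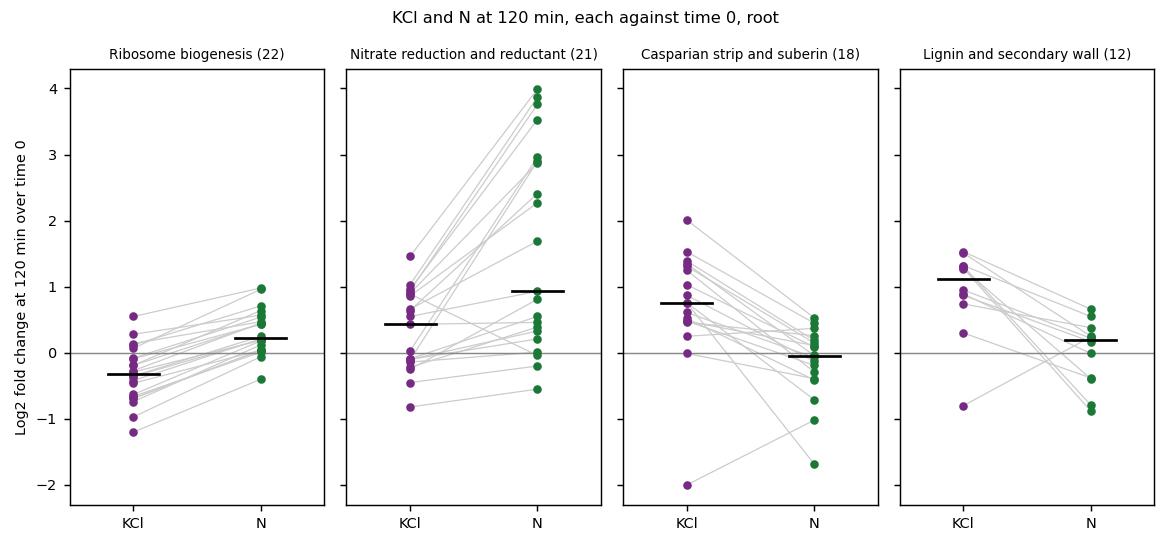
Log2 fold change over time 0 of the tested members of 4 lists at 120 min in KCl and in N, with grey lines joining each gene and black lines at the medians. Ribosome biogenesis members lie lower in KCl (median −0.32) than in N (0.23), and Casparian strip and suberin members higher in KCl (0.76) than in N (−0.05). Both columns share the time 0 samples.

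At 90 min, the nearest other time, N and KCl differed in 16.6% of genes (8.27% higher, 8.28% lower). The difference between the N effect at 120 min and that at 90 min was tested directly, and 0 of 22185 genes passed (0.0%) in edgeR, with 3351 at an unadjusted p under 0.05 and a smallest adjusted p of 0.0641. DESeq2 called 136, and edgeR 399 without KCl replicate 3. NIR1 was at 3118 ± 91.0 CPM in N at 90 min and at 1344 ± 206 at 120 min (SD, n = 3), with KCl at 216 ± 55.6 and 232 ± 44.9. Its log2 was 3.85 at 90 min and 2.54 at 120 min, a difference of −1.32 ± 0.351 (edgeR adjusted p = 0.164).

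NRT1.1 was at 347 ± 55.1 CPM in N at 90 min and 143 ± 7.62 at 120 min (SD, n = 3), with a difference in log2 of −1.49 ± 0.308 (edgeR adjusted p = 0.0707). NRT2.1 had 2443 ± 460 and 1238 ± 138 CPM (difference −1.52 ± 0.528, edgeR adjusted p = 0.226). HRS1 had its highest mean in N at 30 min, 226 ± 13.9 CPM, and stood at 68.8 ± 4.35 at 120 min. The N means of ASN1 were 30.7 ± 5.34 CPM at 90 min and 52.0 ± 16.2 at 120 min, and those of NRT2.4 were 52.5 ± 11.9 and 24.0 ± 3.56. LBD39 stood at 57.2 ± 6.04 and 69.2 ± 5.67. None of these differences in the N effect passed the test (edgeR adjusted p = 0.218 for NRT2.4, 0.314 for LBD39 and 0.82 for ASN1).

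**Figure D4:**
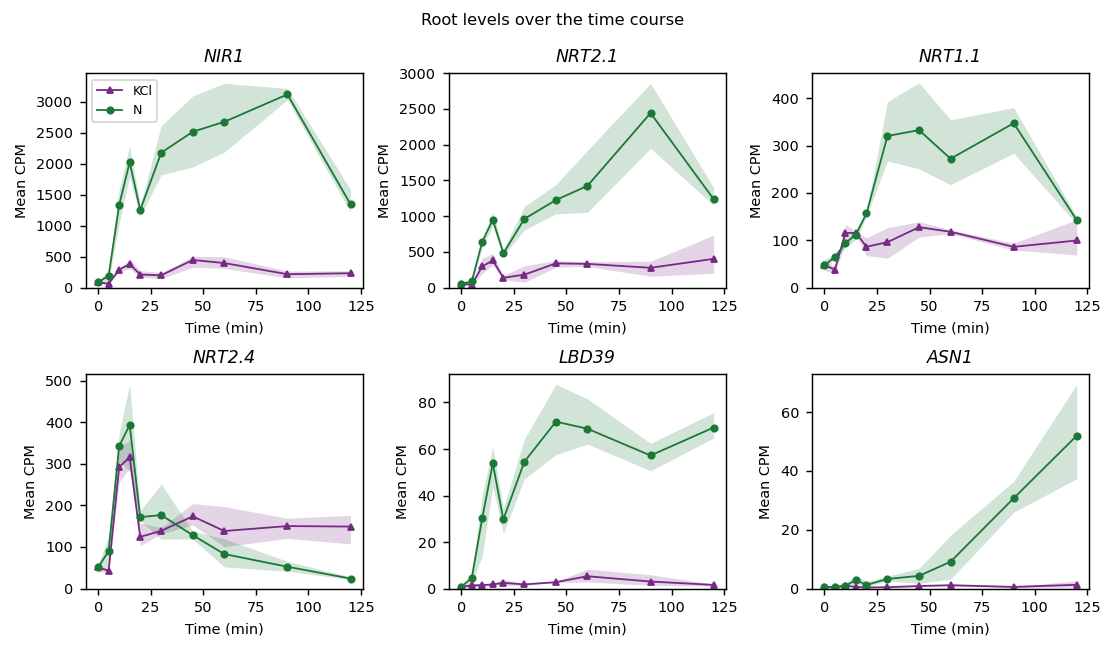
Mean CPM of 6 genes in root samples from 0 to 120 min under N (circles) and KCl (triangles), with bands from the lowest to the highest of 3 samples. NIR1, NRT2.1 and NRT1.1 have lower means in N at 120 than at 90 min, ASN1 has its highest mean at 120 min, and NRT2.4 in N ends below KCl.

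The shoot at 120 min was used to ask which root responses differ between organs. Its 6 samples held 14025064 to 21279373 counts in genes, fewer than the root samples at 120 min. They had 0.0% plastid and mitochondrial counts and 0.0% reads aligned to more than 1 place. Such reads came to 9.29 to 10.8% of gene counts in the root at 120 min. The counts of the organs may thus have been made in different ways, and the part of this in the differences was not tested. The difference of the N effect passed in 3491 of 22491 genes (15.5%, of which 7.68% with a higher and 7.84% with a lower log2 in the root). With the RLE scaling the split became 2490 higher and 1360 lower. Without a nearly empty shoot sample (KCl replicate 2 at 90 min, 1302 counts) it was 1502 and 2146, or 1496 and 2156 with RLE. Among sugar starvation genes, 16 of 27 had a higher log2 in the root and 0 a lower, with 15 to 16 higher and 0 lower in all alternatives run. DIN1 was at 7.91, 14.3 and 10.09 CPM in root N against 2.1, 0.94 and 0.46 in root KCl, but at 0.68, 1.02 and 0.20 in shoot N against 4.65, 1.89 and 2.43 in shoot KCl. Its log2 was 3.22 in the root and −2.29 in the shoot, a difference of 5.51 (edgeR adjusted p = 3.82e-06). DIN10 (3.53 in the root and 0.58 in the shoot), PRODH1 (0.94 and −1.85) and BZIP63 (2.1 and 0.08) differed too.

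All 22 ribosome biogenesis genes were called higher in the root and 22 in the shoot. The log2 was lower in the root for 19 of 22 genes, with a median of 0.63 in the root and a median difference of −0.93. With DESeq2 this count was 12. Over all genes tested, 7.84% had a lower and 7.68% a higher log2 in the root. In the nitrate reduction list, 12 of 21 had a lower log2 in the root and 0 a higher, NIA1 with 1.03 in the root and 3.48 in the shoot and NIA2 with 0.02 and 2.08. SULTR1;2 (3.48 in the root and 0.25 in the shoot), SPX1 (2.17 and −0.55) and SDI1 (2.62 and −0.08) had the higher log2 in the root. Of 21 rapid stress genes, 9 had a lower log2 in the root (beside 7.84% of all genes) and 0 a higher, for example WRKY33 (−1.07 and 0.59) among the lower. In contrast, ASN1 (5.37 and 6.07) and IPT3 (3.88 and 4.09) did not pass the test of the difference, whose log2 was −0.71 (edgeR adjusted p = 0.761) and −0.22 (0.775).

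**Figure D5:**
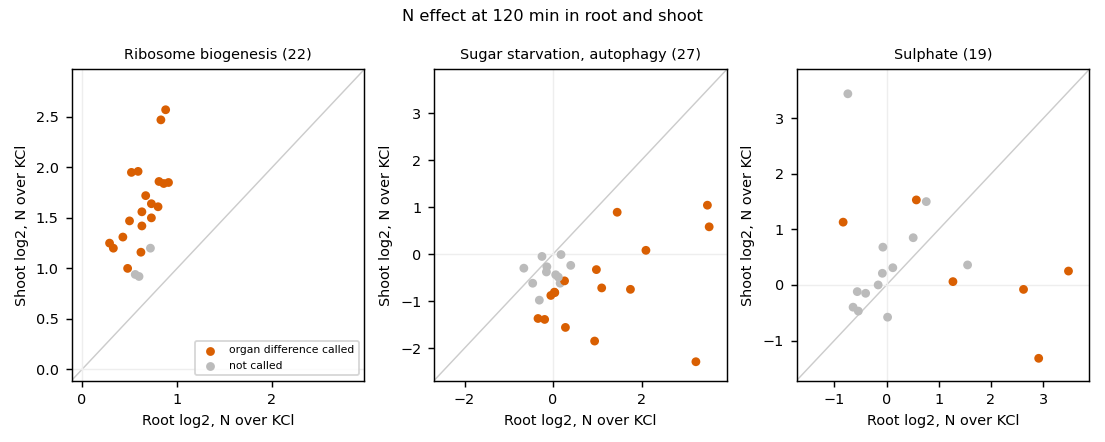
Log2 fold change of N over KCl at 120 min in root (horizontal) and shoot (vertical) for members of 3 lists, with the diagonal of equal change and in orange the members whose organ difference was called. Ribosome biogenesis genes lie above the diagonal (19 of 22 called) and 16 of 27 sugar starvation genes lie below it and are called.

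The promoter windows were searched on both strands, overlaps between motifs allowed, for 22015 tested genes with a window of 300 bases. The site II element TGGGCC was in 17.7% of all windows, in 24.2% of those of genes called higher and in 11.6% of those called lower. Among genes with a change of at least log2 1 it was in 11.9% of the higher and 5.39% of the lower, both below the share of all windows. The telo-box AAACCCTA was in 5.54%, 11.6% and 2.49%, and at log2 1 or more in 8.01% of the higher and 2.44% of the lower. Both were common in the ribosome biogenesis list (59.1% each) and the ribosomal protein list (70.0% and 55.0%). The window of FIB1 shown above holds 2 of each, that of SWA1 2 and 1, and that of TOZ 1 and 1. The W-box TTGACC was in 14.5% of all windows, in 13.4% and 16.7% of those called higher and lower, and in 13.4% and 21.0% of those higher and lower by at least log2 1.

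GAATC was in 45.1% of all windows, in 45.4% of those called higher and 43.7% of those called lower (45.7% and 43.7% at log2 1 or more), so that the 3 matches in NRT2.4 and the 3 in NRT2.5 stand against a common short word, and it was in 28.6% of the nitrate transport list. TGACG was in 23.7% of all windows and 24.1% of those called lower, and the G-box CACGTG in 8.45% of all windows, 8.37% of those called higher and 8.06% of those called lower. At log2 1 or more, TGACG was in 25.2% of the higher and 22.7% of the lower, and the G-box in 9.53% and 5.30%. These matches describe letters in a window only.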

How the data were processed

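Poly(A) RNA of about 100 mg of tissue was sequenced from dUTP-marked libraries, per the labels' protocols. The authors deposited 1 table of raw read counts per sample, listing 28712 gene identifiers. The last 5 lines of each table hold reads given to no gene and were left out (reads outside genes came to 1.03 to 1.75% of the gene counts of the 6 samples). The submitters' processing notes name TAIR10, TopHat2, HTSeq and limma, and the strand setting is not given in the sources used here. Of the identifiers, 28007 were found in the RefSeq table of TAIR10.1. Counts of all 57 root samples were fitted together with edgeR 4.0.16 in R 4.3.3 (1 mean per group, TMM scaling with factors of 1.01 to 1.09 in the 6 samples, filterByExpr with count limits of 10 per sample and 15 in total, quasi-likelihood F-test, Benjamini-Hochberg adjusted p at most 0.05). The difference between organs was fitted over all root and shoot samples. A standard error is the log2 divided by the square root of F. Alternatives were RLE size factors, no filter, DESeq2 1.42.0, limma 3.58.1 (voom), the 6 samples alone, a replicate block, organelle genes left out, and each replicate left out in turn. The fit was run on simulated counts with known changes, drawn with the spread estimated from these samples. Apart from those changes N and KCl had the same composition there, so it cannot test the differences in reads flagged below. Replicates of a group differed by more than sampling noise (chi-square over degrees of freedom 18.0 to 62.7), so none was counted as a duplicate. A label conflict was met: replicate 1 of the time 0 roots has shoot as its source name, against its title and organ label, which were followed.

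The members and the 33 gene lists (660 genes, 659 of them in the files, 601 with a symbol in the reference) were chosen with earlier results of these data known. Genes are named by rule: the 12 largest called changes in each direction with non-overlapping groups and a mean of at least 5 CPM in the higher group, the 10 smallest p-values, up to 3 called members of a list with the smallest p, a set of nitrogen genes, and other members where a list is described member by member. For tests of a difference, the 5 largest in each direction are named.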

Additional observations from a re-analysis of the deposited data

Results flagged for a closer look

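The N and KCl samples of the root at 120 min also differed in measures outside the gene test, with no overlap between the groups. Reads in no gene were 1.57% of the gene counts on average in N (1.46 to 1.75) against 1.03 to 1.24 in KCl, and ambiguous reads 2.39% (2.24 to 2.53) against 1.79 to 1.96. Plastid genes took 0.175% of the counts in N (0.13 to 0.25) against 0.0358 to 0.0822, and mitochondrial genes 0.454% (0.383 to 0.574) against 0.259 to 0.378. At time 0 the plastid share was 0.149 to 0.309% and the mitochondrial share 0.531 to 0.857%. At 90 min N and KCl overlapped in all 4 measures, for example in the plastid share (0.0427 to 0.0915% and 0.0429 to 0.135%) and in reads in no gene (1.08 to 1.34% and 1.11 to 1.37%). The N samples at 120 min thus also lay above those at 90 min, which the comparison of 120 with 90 min includes. Their part in the gene results was not tested. With organelle genes left out 8195 genes were called, a fit that removes few counts and so cannot test that part.

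The effect of N differed between root and shoot in 3491 genes by edgeR's test of the difference. The largest positive differences in log2, root minus shoot, were those of AT4G25400 (a bHLH gene, 6.25), DIN1 (5.51), AT5G02580 (an argininosuccinate lyase gene, 4.99), AT3G24750 (4.82) and UGT85A5 (a glucosyltransferase gene, 4.79). AT5G02580 was at 9.43 to 9.91 CPM in root N and 5.48 to 8.77 in root KCl, and at 1.44 to 1.89 in shoot N and 31.2 to 43.0 in shoot KCl. The largest negative differences were those of AT1G02040 (a zinc finger gene, −8.61), ACA2 (a carbonic anhydrase gene, −7.58), AT5G65980 (an auxin efflux carrier family gene, −7.30), CYP82F1 (−7.29) and AT4G23590 (a transaminase family gene, −6.42). ACA2 was at 1.92 to 2.79 CPM in root N and 5.97 to 20.7 in root KCl, and at 6.28 to 9.47 in shoot N and 0.15 to 0.47 in shoot KCl. AT4G25400 and AT3G24750 were at 0 in all 3 shoot N samples, and AT1G02040, CYP82F1 and AT4G23590 in all 3 shoot KCl samples, so their fitted values depend on the prior count and are no bound.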

How the results depend on the processing

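Of 663 named genes and list members, 372 were called; 262 of these were called in every alternative, 110 were lost in at least 1, and 0 changed direction. The number of genes called between N and KCl was 7763 to 9172 in the alternatives with all 6 samples and 5995 to 8456 with 1 sample left out. For the effect at 120 against 90 min, DESeq2 called 136 genes (8 higher, 128 lower). Leaving out 1 replicate gave 0 to 399 there (0 to 121 higher, 0 to 278 lower), with 399 without KCl replicate 3. For root against shoot, RLE size factors gave 2490 higher and 1360 lower (64.7% higher), DESeq2 2003 and 1149 (63.5%), and no filter 1332 and 2020 (39.7%). These fits and the main one include a nearly empty shoot sample, KCl replicate 2 at 90 min, with 1302 counts in genes. Leaving it out, chosen after seeing the data, gave 1502 and 2146 (41.2%) with the main settings. With RLE size factors it gave 1496 and 2156 (41.0%), and with DESeq2 1750 and 2398 (42.2%). Leaving out 1 replicate gave 1113 to 1788 higher there, with 1113 without N replicate 3. The cause was not tested. With a replicate block the counts were 8202 for N against KCl, 0 for 120 against 90 min, 10638 and 8003 for KCl and N against time 0, and 3492 for the organs. The same-numbered N and KCl samples did not deviate together (correlations −0.24, 0.05 and −0.05), so the numbers were not taken to pair them. The 3 samples per group limit the precision.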
